A study of Mus musculus with 6 samples.

Results

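LINE1 elements, the long interspersed retrotransposons that make up a large share of the mouse genome, were followed in mouse ES cells that were moved from serum medium to 2i+vitC medium. Every transposon family whose name starts with L1 or Lx was taken, which gave 80 of the 302 families measured beside 12626 genes. By name, 6 of the 80 were L1Md families, 12 were other mouse and rodent L1 families (L1_ and L1VL names), 41 were mammalian L1 families (L1M followed by a capital letter or a digit) and 21 were Lx families. The rule uses names alone, although it was set with earlier results of these data known.

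The cells were J1 WT mouse ES cells, a single wild-type line grown feeder-free with LIF throughout. The D0 samples were in serum, and the D6 and D13 samples had spent 6 and 13 days in 2i+vitC, a serum-free medium with the Gsk3 inhibitor CT-99021, the MEK inhibitor PD0325901 and vitamin C. Each of the 3 days had 2 replicates, for 6 libraries of RNA-seq from a stranded mRNA kit. All samples come from 1 cell line, and the study calls the replicates biological while the labels do not name separate cultures. The p-values therefore set a difference between days against the spread between these samples, not between cell lines.

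A full-length LINE1 carries a promoter in its 5′ end and encodes ORF1, an RNA-binding protein, and ORF2, which has endonuclease and reverse transcriptase activity. Mouse promoters are built from repeated units called monomers, and the A, T and Gf types of L1Md still contain copies able to move, whereas L1Md_F types, the Lx families and the L1M families are progressively older and mostly broken. CpG methylation of the promoter, H3K9 methylation and RNA-level defence all restrain LINE1 in mouse cells.

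The monomer types can be told apart by sequence, and the primer pairs that the study designed against them are shown because the A and T types lead the results below. The letters are 5′ to 3′, capitals mark CpG dinucleotides, the positions where DNA methylation can sit. None of these primers was used to make the read counts.
Forward primer for the A monomer: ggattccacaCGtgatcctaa
Forward primer for the T monomer: cagCGgtCGccatcttg
Forward primer for ORF2: ggagggacatttcattctcatca
Reverse primer for the A monomer: tcctctatgagcagacctgga
Reverse primer for the T monomer: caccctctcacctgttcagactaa
Reverse primer for ORF2: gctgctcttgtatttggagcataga
The forward primer on the T monomer, 17 bases long, held 2 CpG dinucleotides, and that on the A monomer, 21 bases long, held 1. The ORF2 primers, which lie in the coding part that the types share, held 0.

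Levels are given as log2 CPM, the log2 of CPM (reads as counts per unit of library size, scaled between libraries), in which 1 unit is a doubling. Reads on genes numbered 73230745 to 83688345 per library and weighted reads on transposon families 725940 to 1896202, and 3 reads were worth 0.034 to 0.042 CPM, so the L1Md families with 650 or more weighted reads in every library were far above the counting floor. A read matching many copies was divided among them, so families with near-identical copies can share reads, and levels are neither per copy nor per length. The 9 ES cell markers summed to 2726 to 3370 CPM at D0, 3715 to 3960 at D6 and 2753 to 3265 at D13. Single markers moved: Nanog and Tbx3 rose more than 4-fold from D0 to D6 (2.00 and 3.85 on the log2 scale) and Utf1 fell (-2.10), and from D0 to D13 Tbx3 rose (3.26) and Dppa4 and Utf1 fell (-2.27 and -2.96), while Pou5f1 stood between 9.46 and 10.18 log2 CPM. The 4 fibroblast markers measured summed to 13.5 to 33.1 CPM at D0, 7.84 to 8.89 at D6 and 9.75 to 10.6 at D13. For 2 primitive endoderm markers the sums were 16.5 to 18.0, 1.53 to 2.13 and 1.65 to 1.83 CPM, nearly all of it Dab2 at D0. The 3 Zscan4 genes, markers of 2-cell-like cells, summed to 8.34 to 10.4, 3.38 to 3.98 and 0.260 to 0.553 CPM. The part of these other cell types in the LINE1 values was not tested, and in bulk RNA fewer cells of a type and less RNA per cell cannot be told apart.

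The replicates of a day stood apart from each other in the older families, and this precedes any comparison of days. Of 41 mammalian L1 families, 41 were higher in D6 replicate 1 than in replicate 2, by a median of 1.03 on the log2 scale, and 39 were higher in D0 replicate 1, by a median of 0.58. At D13 the order was the other way, with replicate 2 higher in 38 of 41 and a median difference, replicate 1 minus replicate 2, of -1.14. The Lx families followed the same libraries, with medians of 0.56, 0.77 and -0.66 at D0, D6 and D13. The L1Md families had medians of -0.07, 0.16 and -0.54, and the 222 transposon families that are not LINE1 had 0.37, 0.76 and -0.76. What made libraries of one day differ was not tested.

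**Figure D1:**
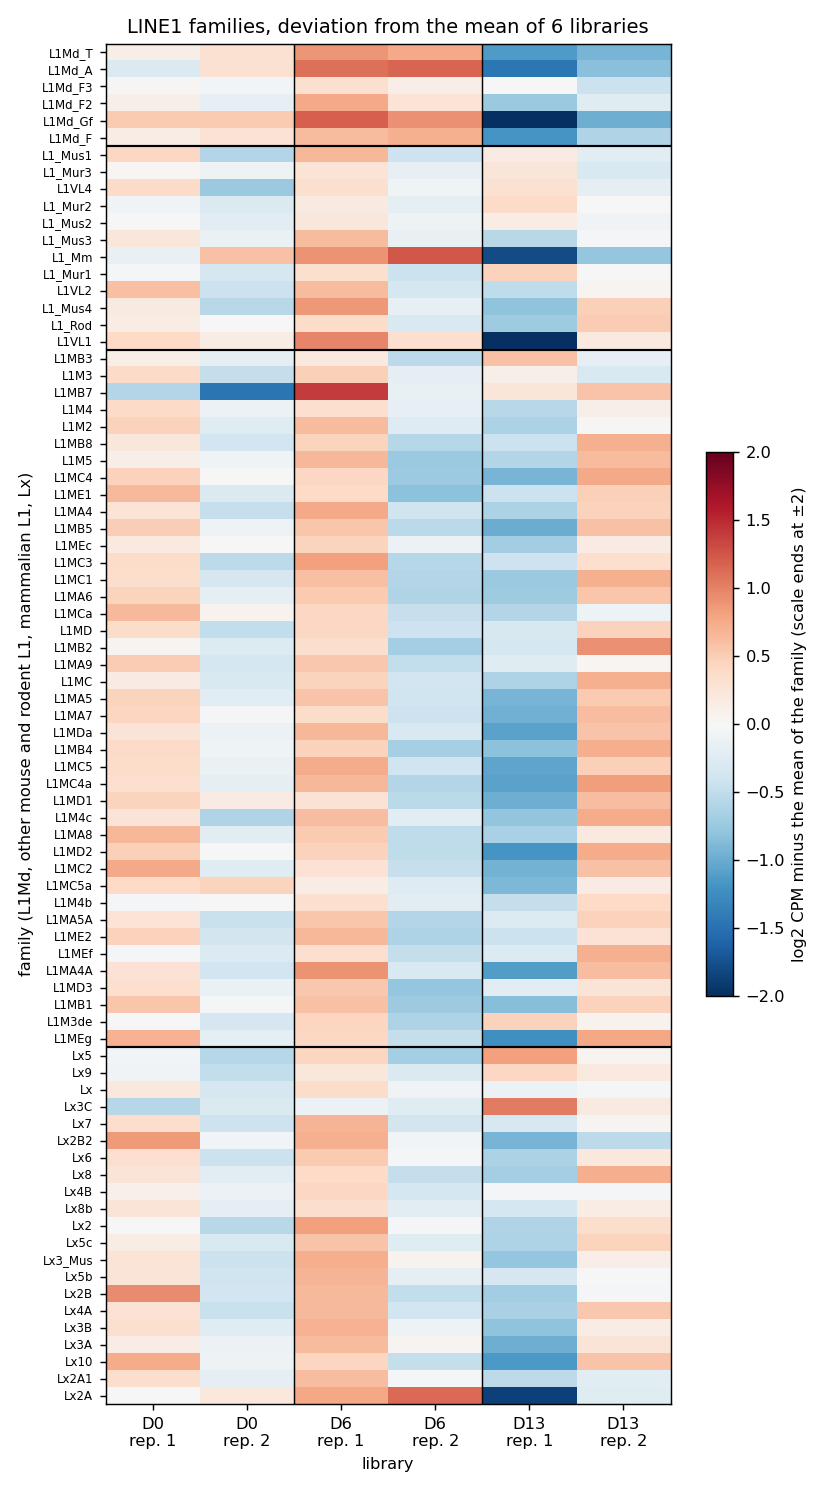
Each row is 1 of 80 LINE1 families and each column a library (D0, D6 and D13, 2 replicates each); colour gives log2 CPM minus the mean of that family over the 6 libraries, red for above and blue for below, and black lines part the 4 classes and the days. The L1Md rows and L1_Mm are red in both D6 libraries and blue in D13 replicate 1, except L1Md_F3 there, while the mammalian rows are red in D6 replicate 1 and blue in D6 replicate 2.

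LINE1 families took 0.638% and 0.680% of all counted reads in the D0 replicates, 1.09% and 0.932% at D6 and then 0.412% and 0.453% at D13. The 3 days did not overlap, D6 being highest and D13 lowest. The means were 0.659% ± 0.0292, 1.01% ± 0.113 and 0.432% ± 0.0290 (SD, n = 2 each). Of the reads on transposon families alone, LINE1 took 42.1% and 57.7% at D0, 44.4% and 56.4% at D6 and then 42.7% and 37.8% at D13. By that measure D0 overlapped both other days, and D6 did not stand above D0. With 2 replicates against 2, the smallest two-sided p that an exact permutation test can give is 0.33, so these shares were not tested.

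The L1Md families held most of these reads at D0 and D6 and had the same order of days. They took 0.397% and 0.502% of counted reads at D0, 0.788% and 0.741% at D6 and then 0.184% and 0.237% at D13. The 74 families of the other classes together took 0.242% and 0.178%, 0.305% and 0.192%, and 0.227% and 0.216%, and their days overlapped. The L1Md part of LINE1 reads was 62.2% and 73.8% at D0, 72.1% and 79.4% at D6 and then 44.8% and 52.4% at D13, where both replicates lay below all 4 earlier libraries. The pair L1Md_A and L1Md_T held most of it, with 51.7% and 64.3% of LINE1 reads at D0, 63.1% and 71.0% at D6 and then 33.5% and 41.4% at D13. Since these are ratios within a library, scaling between libraries does not enter them.

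**Figure D2:**
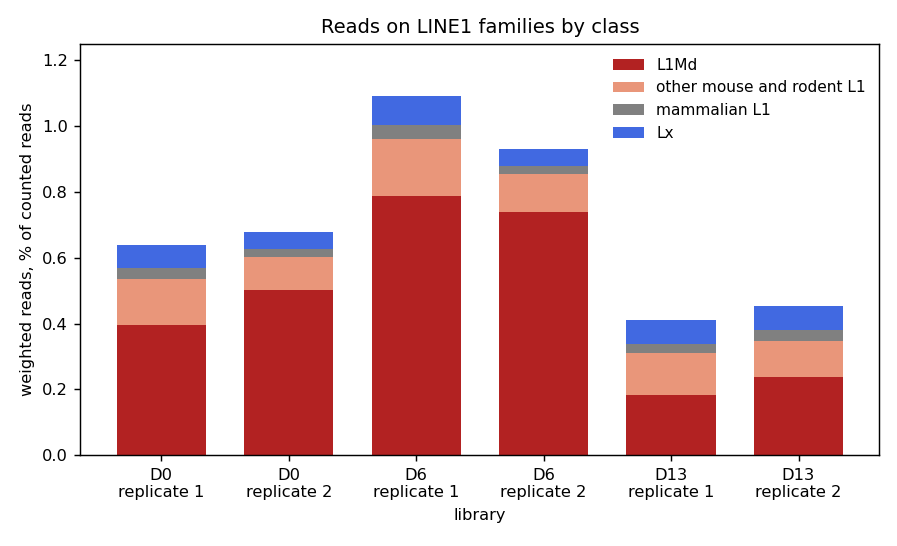
Stacked bars give the weighted reads on each LINE1 class as a percent of all counted reads in each library. The L1Md segment is 0.788% and 0.741% at D6 and 0.184% and 0.237% at D13, while the segments above it keep to a narrower range.

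L1Md_T, the T-monomer type, held the most reads. Its D0 replicates were at 11.16 and 11.34 log2 CPM, its D6 replicates at 11.93 and 11.79, and its D13 replicates at 9.91 and 10.12. The D13 libraries were the lowest and the D6 libraries the highest, with no overlap between days. L1Md_A, the A-monomer type, stood at 10.09 and 10.68, 11.47 and 11.55, and 8.93 and 9.53 log2 CPM, in the same order of days and again with no overlap.

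L1Md_Gf, the Gf-monomer type and far fewer in reads, stood at 5.90 and 5.90 log2 CPM at D0, 6.57 and 6.29 at D6 and then 3.19 and 4.39 at D13. In weighted reads it went from 4707 and 5216 at D0 to 650 and 1576 at D13, and the 2 D13 libraries differed from each other more than those of any other L1Md family on any day. Among the F types, L1Md_F stood at 5.04 and 5.18, 5.53 and 5.61, and 3.71 and 4.29 log2 CPM. These days too did not overlap.

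L1Md_F2 stood at 8.11 and 7.83, 8.75 and 8.26, and 7.24 and 7.75 log2 CPM. L1Md_F3 stood at 8.32 and 8.24, 8.62 and 8.44, and 8.30 and 7.87 log2 CPM. Both had their highest mean at D6 and lowest at D13, in a narrower range than the A, T and Gf types, and one D13 library of L1Md_F3 lay within its D0 range.

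**Figure D3:**
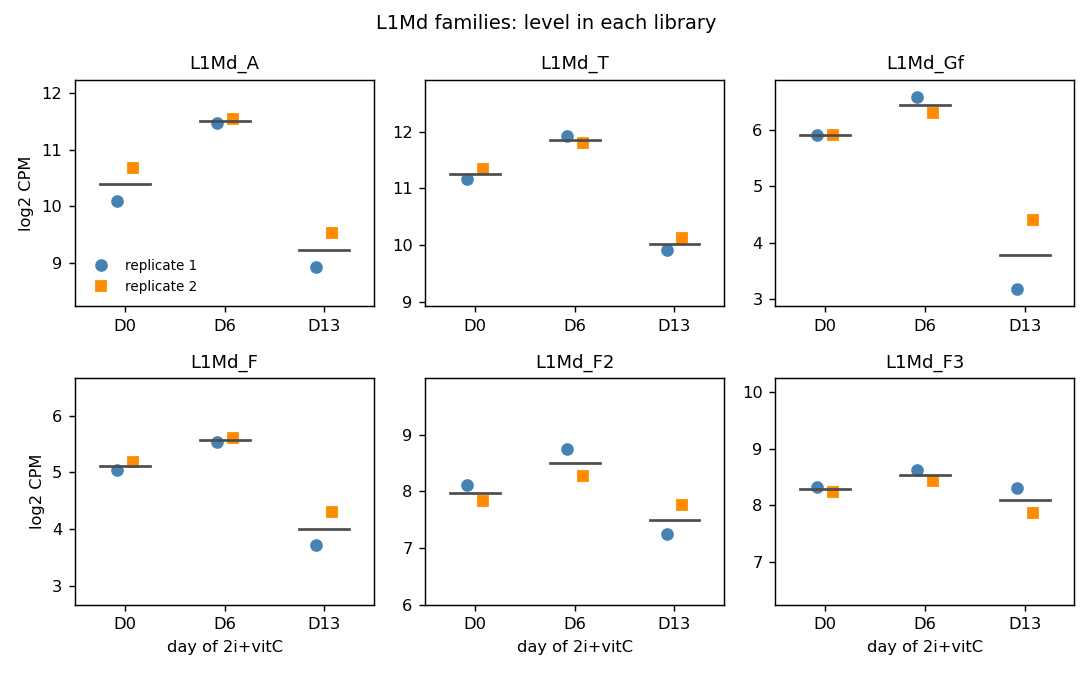
Log2 CPM of each of the 6 L1Md families in each library by day of 2i+vitC; circles are replicate 1, squares replicate 2, bars the mean of 2, and every panel spans 4 log2 units. D6 is highest in all 6 panels, and the drop to D13 is deep for L1Md_A, L1Md_T, L1Md_Gf and L1Md_F and shallow for L1Md_F3.

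From D0 to D6, the question was whether LINE1 RNA responds early in the conversion. L1Md_A rose 2.18-fold, by 1.12 on the log2 scale (standard error 0.31), and L1MB7, a mammalian family, rose 3.14-fold, by 1.65 (standard error 0.49), at limma p-values adjusted by Benjamini-Hochberg of 0.029 and 0.039. They were 2 of 80 LINE1 families past the threshold of more than 2-fold and adjusted p under 0.05, beside 12.9% of all 302 families called higher. By the limma test 0 LINE1 families were called lower, 0 were lower at an unadjusted p under 0.05, and limma with voom precision weights also called 0, beside 0% of all families. Both D6 libraries lay above both D0 libraries in 10 of 80 LINE1 families, among them all 6 L1Md families, beside 24.5% of all families. L1MC5a (chosen after its values were seen) was the 1 LINE1 family of 80 that lay wholly below D0, beside 1.99%.

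The other L1Md families did not pass, with log2 fold changes of 0.61 for L1Md_T, 0.53 for L1Md_Gf, 0.53 for L1Md_F2, 0.46 for L1Md_F and 0.25 for L1Md_F3, and limma adjusted p from 0.126 to 0.491. The median log2 fold change was 0.53 in the L1Md class, 0.19 in the other mouse and rodent class, -0.03 in the mammalian class and 0.21 in the Lx class, and 0.22 over the 222 families that are not LINE1. Of 302 families, 58.9% had their highest mean at D6. This held for 6 of 6 L1Md, 9 of 12 other mouse and rodent, 14 of 21 Lx and 12 of 41 mammalian families, of which 20 were highest at D0.

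These calls did not hold with each library left out, although the size of the change did not always move. The L1Md_A change was 1.16 without D6 replicate 1 and 1.09 without D6 replicate 2, each with standard error 0.46. That of L1MB7 stayed at 1.65 without either D13 replicate, which are not part of this comparison. Without D0 replicate 1 the L1Md_A change was 0.83 (limma adjusted p = 0.126, range over its alternatives 0.0011 to 0.145), and its call was also lost without either D6 replicate, while its direction held. L1MB7 was at 4.08 and 3.20 log2 CPM at D0, 6.07 and 4.51 at D6 and then 4.90 and 5.23 at D13, so that D6 replicate 1 stood 1.56 above its partner. Without that library its change was 0.87 (limma adjusted p = 0.307, range over its alternatives 2.0e-05 to 0.307), and L1MB7 kept its call only without D6 replicate 2 among the 6 libraries left out in turn.

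From D6 to D13, the question was what follows while the cells stay in the same medium. L1Md_Gf fell 6.25-fold, L1Md_A 4.86-fold, L1Md_T 3.59-fold and L1Md_F 2.97-fold, and L1_Mm, a family named for Mus musculus, fell 5.10-fold. On the log2 scale the changes were -2.64 (standard error 0.36) for L1Md_Gf, -2.28 (0.31) for L1Md_A, -1.84 (0.26) for L1Md_T, -1.57 (0.26) for L1Md_F and -2.35 (0.37) for L1_Mm, with limma adjusted p between 0.016 and 0.023. These 5 of 80 stood beside 3.97% of all 302 families called lower, 12 families in all, of which 5 were LINE1.

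L1Md_F2 missed the adjusted threshold (log2 fold change -1.01 with standard error 0.27, adjusted p = 0.065 by limma), as did L1Md_F3 (-0.44 with standard error 0.23, adjusted p = 0.272 by limma). Both D13 libraries lay below both D6 libraries in 11 of 80 LINE1 families, beside 21.9% of all families, and this held for all 6 L1Md families. In the other classes the same was true of 2 of 12 other mouse and rodent families (L1_Mm and L1VL1), 3 of 21 Lx families (Lx2A, Lx2A1 and Lx2B2) and 0 of 41 mammalian families. L1VL1, Lx2A and Lx2A1 are named after their values were seen and did not pass, and Lx2A had only 18 to 174 weighted reads per library. Both D13 libraries lay above both D6 libraries in 1 of 80, Lx3C, beside 2.65% of all families. The median log2 fold change was -1.71 in the L1Md class, -0.14 in the other mouse and rodent class, -0.12 in the mammalian class and -0.29 in the Lx class, against -0.44 over the 222 families that are not LINE1. By limma 0 LINE1 families were called higher, with 1 at an unadjusted p under 0.05 and 0 by limma with voom precision weights, beside 0% of all families.

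The adjusted p-values of this step depended on single libraries more than the sizes did. Without D13 replicate 1, 0 LINE1 families passed, with changes of -2.04 for L1Md_Gf, -1.98 for L1Md_A, -1.74 for L1Md_T, -1.28 for L1Md_F and -1.84 for L1_Mm at limma adjusted p from 0.097 to 0.104. Without D6 replicate 2, D6 replicate 1 and D13 replicate 2, the LINE1 families called lower numbered 1, 3 and 8, and 1 family, Lx3C, was called higher (1.22) without D13 replicate 2.

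**Figure D4:**
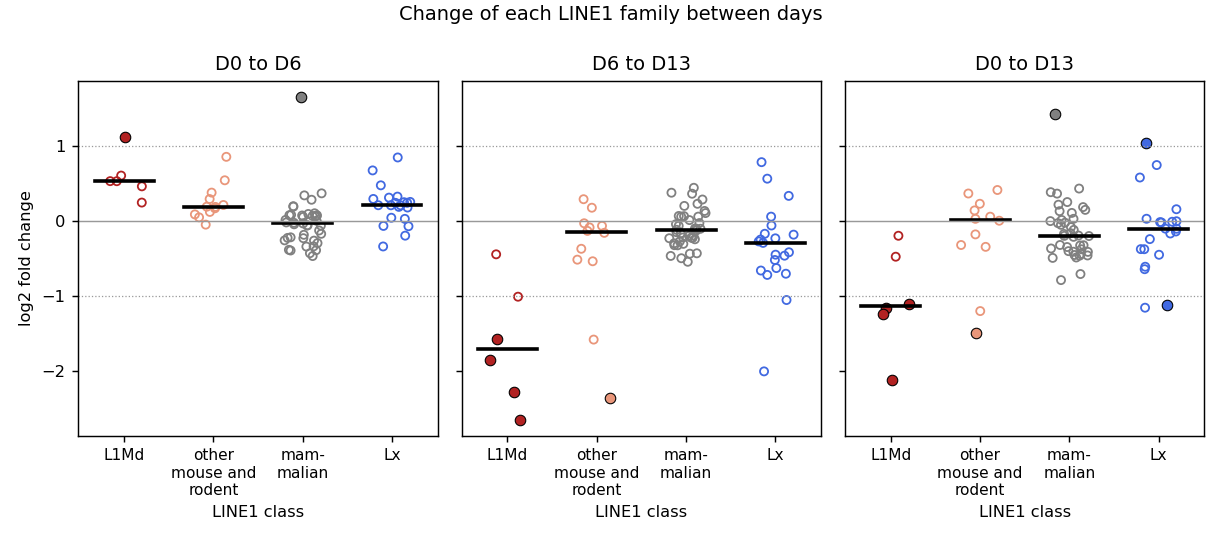
Log2 fold change of every LINE1 family in each of the 3 comparisons, by class; filled points with a black edge passed more than 2-fold and adjusted p under 0.05, open points did not, thick bars are class medians and dotted lines mark 2-fold. The L1Md median is 0.53, -1.71 and -1.13 from left to right, and the mammalian median stays between -0.19 and -0.03.

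From D0 to D13, the question was where LINE1 RNA stood against the serum cells at the end. L1Md_Gf fell 4.32-fold (log2 fold change -2.11, standard error 0.36), L1Md_T 2.36-fold (-1.24, 0.26), L1Md_A 2.23-fold (-1.16, 0.31), L1Md_F 2.15-fold (-1.11, 0.26) and L1_Mm 2.81-fold (-1.49, 0.37), with limma adjusted p from 0.0021 to 0.016. An Lx family, Lx2B2, fell 2.16-fold (-1.11, 0.36, limma adjusted p = 0.037). These 6 of 80 stood beside 5.63% of all families called lower. L1MB7 rose 2.69-fold (1.43, 0.49, limma adjusted p = 0.044) and Lx3C 2.06-fold (1.04, 0.30, limma adjusted p = 0.022), 2 of 80 beside 9.27% of all families called higher.

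Both D13 libraries lay below both D0 libraries in 11 of 80 LINE1 families, beside 14.2% of all families. They did so in 5 of 6 L1Md families, and in L1Md_F3 they overlapped. Both D13 libraries lay above both D0 libraries in 7 of 80 LINE1 families, beside 19.9% of all families, and none of the 7 was an L1Md family. The class medians were -1.13 for L1Md, 0.02 for the other mouse and rodent families, -0.19 for the mammalian families and -0.10 for Lx, and -0.08 over the families that are not LINE1. This comparison shares its samples with the preceding comparisons, so its calls are not a separate line of evidence. Without D13 replicate 1, the LINE1 families called lower went from 6 to 2 and those called higher from 2 to 0, and L1Md_T and L1Md_Gf were the 2 L1Md families of which the call was kept whichever library was left out. The calls of L1Md_A and L1_Mm were also lost without D0 replicate 2 (-0.86 and -1.12), and that of L1MB7 without D0 replicate 2 (0.99) or either D13 replicate.

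L1_Mm, the other mouse and rodent family that passed, had the course of L1Md_A. It stood at 5.62 and 6.36 log2 CPM at D0, 6.67 and 7.01 at D6 and then 3.99 and 5.0 at D13, with no overlap between days. Its log2 ratio to L1Md_A within a library was -4.47 and -4.33, -4.80 and -4.53, and -4.94 and -4.53, a range of under 1 unit while its own level spanned more than 3. Whether L1_Mm and L1Md_A share reads that map to both was not tested.

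Ratios to L1Md_T in the same library, which need no scaling between libraries, showed that the L1Md families did not all move in proportion. The log2 ratio of L1Md_A to L1Md_T was -1.08 and -0.66 at D0, -0.45 and -0.25 at D6 and then -0.99 and -0.59 at D13, so D6 lay above both other days. That of L1Md_Gf was -5.26 and -5.44, -5.35 and -5.50, and -6.73 and -5.73, with D13 below all 4 earlier libraries. For L1Md_F the ratios were -6.13 and -6.17, -6.39 and -6.18, and -6.20 and -5.83, and D13 overlapped both other days.

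L1Md_F2 and L1Md_F3 went the other way relative to L1Md_T. Their log2 ratios were -3.06 and -3.51, -3.18 and -3.53, and -2.67 and -2.37 for L1Md_F2, and -2.85 and -3.10, -3.31 and -3.36, and -1.61 and -2.25 for L1Md_F3. At D13 both stood above all 4 earlier libraries. Each of these ratios compares 2 libraries with 2 and was not tested.

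**Figure D5:**
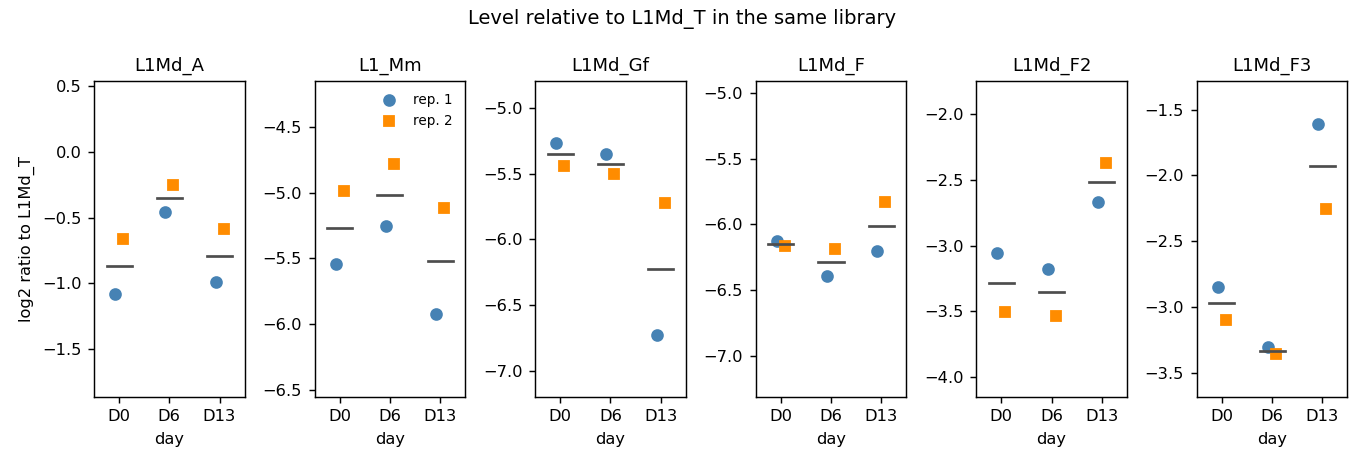
Log2 ratio of each family to L1Md_T in the same library, by day; circles are replicate 1, squares replicate 2, bars the mean of 2, and every panel spans 2.4 log2 units. L1Md_A and L1_Mm have their highest means at D6, L1Md_Gf is lowest at D13, and L1Md_F2 and L1Md_F3 are highest at D13.

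The 3 most abundant other mouse and rodent families had their highest mean at D6, as the L1Md families did, but their lowest at D0. Among other mouse and rodent families with the most reads, L1_Mus1 stood at 8.70 and 7.70 log2 CPM at D0, 8.96 and 7.87 at D6 and then 8.46 and 8.06 at D13. L1_Mur3 stood at 8.01 and 7.87, 8.25 and 7.82, and 8.22 and 7.67, and L1VL4 at 8.06 and 6.93, 8.00 and 7.58, and 7.97 and 7.49. In all of these the replicates of a day spread over the other days, and no log2 fold change between days exceeded 0.29 in size.

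In the mammalian class, L1MB3 stood at 6.73 and 6.42, 6.81 and 6.09, and 7.21 and 6.45 log2 CPM, and L1M3 at 5.23 and 4.36, 5.32 and 4.66, and 4.96 and 4.54. Their days overlapped in every comparison. From D6 to D13, 0 of 41 mammalian families reached an unadjusted limma p under 0.05 and 0 were called, with changes between -0.54 and 0.44. The sign of the class median turned with the library: from D0 to D6 it was -0.58 without D6 replicate 1 and 0.46 without D6 replicate 2, and from D6 to D13 it was 0.46 without D13 replicate 1 and -0.68 without D13 replicate 2. Under the same omissions the L1Md median stayed between 0.45 and 0.67 from D0 to D6 and between -1.90 and -1.51 from D6 to D13.

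The Lx families, an older rodent lineage, moved in both directions. Lx2B2 stood at 6.23 and 5.32 log2 CPM at D0, 6.09 and 5.33 at D6 and then 4.46 and 4.86 at D13, so its decrease lay after D6, although the step from D6 to D13, -1.05 on the log2 scale with standard error 0.36, did not pass (adjusted p = 0.125 by limma). Its call from D0 to D13 was lost without D0 replicate 1, where the change was -0.66, and without either D13 replicate. Lx3C stood at 5.51 and 5.80, 5.98 and 5.85, and 7.13 and 6.26, and its D13 libraries were above all earlier ones. Without D13 replicate 1, the higher of these, its change from D0 was 0.60 (limma adjusted p = 0.082, range over its alternatives 0.0038 to 0.103), and the call was also lost without D0 replicate 1, at 0.90.

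Of the 3 Lx families with the highest means, Lx5 and Lx9 peaked at D13 and Lx at D6, and none passed. Lx5 stood at 7.00 and 6.49, 7.48 and 6.37, and 7.88 and 7.11 log2 CPM, Lx9 at 6.46 and 6.04, 6.75 and 6.24, and 6.94 and 6.72, and Lx at 6.44 and 5.88, 6.58 and 6.16, and 6.10 and 6.18. From D0 to D13 the changes of Lx5 (0.75), Lx9 (0.58) and Lx (-0.02) had limma adjusted p of 0.159, 0.099 and 0.959. Set against Lx9 in the same library, L1Md_T had log2 ratios of 4.70 and 5.30 at D0, 5.17 and 5.56 at D6 and then 2.97 and 3.40 at D13, the D13 libraries lying below all others. L1Md_A had 3.63 and 4.64, 4.72 and 5.31, and 1.98 and 2.81 against Lx9, again lowest at D13.

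Genes known to restrain or accompany LINE1 were read in the same libraries from a list of 41, of which 37 had a row. The call for a gene was more than 4-fold with limma adjusted p under 0.05. From D0 to D6, Zc3hav1, an antiviral RNA-binding protein, rose, and the de novo DNA methyltransferases Dnmt3a and Dnmt3b and their cofactor Dnmt3l fell, 1 higher and 3 lower beside 5.91% and 3.9% of 12626 genes. From D6 to D13, 0 were called higher and 1 lower, L1td1, beside 0.388% and 0.697% of genes, and in that step 0 regulators passed without D13 replicate 1 and 2 passed without D6 replicate 1 or D13 replicate 2. From D0 to D13, 1 was called higher and 4 lower, beside 7.45% and 6.01%.

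L1td1, a gene derived from LINE1 ORF1 that is expressed in pluripotent cells, stood at 10.02 and 10.05 log2 CPM at D0, 8.38 and 8.67 at D6 and then 5.42 and 5.79 at D13. It was lower at each later day, and unlike the L1Md families it had no D6 maximum. Between D0 and D6 it changed by -1.51 on the log2 scale (adjusted p = 0.0016 by limma), which did not reach 4-fold, and between D6 and D13 by -2.92 (adjusted p = 0.0043 by limma), each with a standard error of 0.23.

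Dnmt3l stood at 8.20 and 7.97 log2 CPM at D0, 2.61 and 3.81 at D6 and then 2.04 and 1.48 at D13, a change of -4.87 on the log2 scale by D6 (standard error 0.39, adjusted p = 8.3e-05 by limma). Dnmt3b and Dnmt3a changed by -3.37 and -2.41 to D6 and by -0.33 and 0.03 from D6 to D13. Their decrease was thus present in the same D6 samples in which the L1Md levels were highest. No sample lies between D0 and D6, so which change came first cannot be told. Dnmt1, the maintenance methyltransferase, had log2 fold changes of 0.18 and 0.22 in the successive intervals, and Uhrf1, which guides Dnmt1 to replicated DNA, of 1.11 (limma adjusted p = 0.0060) and 0.53. Neither reached 4-fold.

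Among H3K9 methylation genes, the methyltransferase gene Suv39h1 stood at 5.92 and 5.36 log2 CPM at D0, 4.41 and 4.23 at D6 and then 5.35 and 5.47 at D13. It was lowest at D6, where the L1Md families were highest, with log2 fold changes of -1.32 (limma adjusted p = 0.0058) and 1.09 (limma adjusted p = 0.0502). Both changes were under 4-fold, and the later one also missed adjusted p under 0.05. Suv39h2, its paralog, had -0.56 and -0.33, Trim28, a corepressor of zinc finger proteins, -0.23 and -0.30, and the methyltransferase gene Setdb1 0.46 and -0.57. Over the 37 genes the median log2 fold change was -0.14, -0.20 and -0.26 from D0 to D6, D6 to D13 and D0 to D13, beside -0.01 over all genes in each comparison. A lowest mean at D6 was not particular to Suv39h1. Named after their values were seen, the germline defence genes Ddx4 (-1.74 and 1.14), Piwil2 (-0.66 and 0.86) and Mael (-0.61 and 0.74) had it too. Tex19.1 of the same group had its highest mean there (0.09 and -0.56). The part of these genes in the LINE1 levels was not tested.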

How the data were processed

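RNA-seq of 6 samples (3 days, 2 replicates each) was analysed. Per the labels and the study's methods, the authors made TruSeq Stranded mRNA libraries, aligned gene reads to mm10 with TopHat2 2.0.6 and counted them with HTSeq 0.6.1. For transposons they used Bowtie 1.0.0 with 0 mismatches and up to 10000 best alignments, dropped reads in exons, gave every read a weight set by how many sites it matched, and required 80% overlap with an annotated family. They scaled genes and families together by TMM and deposited log2 CPM values from voom.

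Each day was compared by limma 3.58.1 (R 4.3.3, mean-variance trend, all 6 samples, no replicate block) on these deposited log2 values over all 12928 rows, with Benjamini-Hochberg adjustment over all rows. Families were called at more than 2-fold and genes at more than 4-fold, with adjusted p under 0.05. All 80 LINE1 rows were tested, and families left out before deposit were not analysed here. Reads were recovered from the steps of the gene values, 100% of which came out whole within 0.01 among values under 10000 reads, and gave the shares and depth. Weighted family reads are not whole, so no count model was used. Shares are given per library with the SD between replicates, and no counting interval is given because weighted reads are not counts. The fit was also run on simulated data with independent noise in each row, which do not hold the shared shifts of a library seen here.

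The members and lists were chosen with earlier results of these data known. Named were all L1Md families, every other LINE1 family past the threshold, the 3 families with the highest mean in each other class, regulators past 4-fold and 10 chosen regulators. Tdg, Piwil4, Tdrd1, Tdrd9, Col3a1, Sox7 and Foxa2 had no row and were not analysed here. Alternatives covered scaling, filters, the block, weights, the adjustment and each library left out. Primer sequences came from the study's supplementary primer list.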

Additional observations from a re-analysis of the deposited data

How the results depend on the processing

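The number of LINE1 families called is given in the order higher and lower from D0 to D6 (2 and 0), D6 to D13 (0 and 5) and D0 to D13 (2 and 6). With each library left out in turn the counts were 0 to 1 and 0 to 0, 0 to 1 and 0 to 8, and 0 to 2 and 2 to 7. For regulator genes the counts, 4, 1 and 5, became 4 to 5, 0 to 2 and 5 to 5. At 2-fold the regulator counts were 8 from D0 to D6 and 11 from D0 to D13. The share of all genes past 2-fold was not computed, so these counts are not read as a result about the regulators. Higher calls from D0 to D6 numbered 1 with adjustment over families only, without a trend, or with only the 2 days compared. Higher calls from D0 to D13 numbered 0 with adjustment over families only and 1 without a trend, scaled to gene reads or with voom precision weights. The cause was not tested. All signs of the 6 L1Md changes held under every alternative but one, L1Md_F3 from D0 to D13, which was not called and was 0.02 without D13 replicate 2. With transposon reads as the denominator, the mean LINE1 share was 49.9%, 50.4% and 40.3% at D0, D6 and D13. The SDs were 11.1, 8.47 and 3.43, and the D0 replicates overlapped those of both other days. With gene reads, a choice made after seeing the data, the means were 0.668%, 1.03% and 0.437%. Depth limits the older families, whose lowest had 18 weighted reads in a library.

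The labels do not say that a replicate number marks a shared culture. For D0 with D6, D6 with D13 and D0 with D13, deviations of same-numbered libraries correlated at -0.06, 0.24 and 0.12 over all rows, at 0.54, 0.10 and 0.22 over transposon families and at 0.69, -0.26 and -0.08 over LINE1 families, so the numbers were not taken to pair the samples. With a replicate block, 7 LINE1 families were called lower from D6 to D13, and blocks on D6 and D13 alone, same-numbered or crossed and chosen after seeing the data, each called 9. For D0 and D6 alone both called 2 higher and 0 lower. The block lost no call among the families named and added L1Md_F2 from D6 to D13 (limma adjusted p = 0.037, range over its alternatives 0.00073 to 0.429), and the blocks on D6 and D13 alone also added Lx2B2.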
